A study of Arabidopsis thaliana with 8 samples.

Results

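The morning clock MYB genes of Arabidopsis thaliana are LHY, CCA1 and the REVEILLE (RVE) genes, which encode transcription factors with a single MYB-like repeat. The rule that picks the members uses gene identity and no measured value, although earlier results of these data were known when they were picked. They are LHY (AT1G01060), CCA1 (AT2G46830), RVE1 (AT5G17300), RVE2 (AT5G37260), RVE4 (AT5G02840), RVE6 (AT5G52660), RVE7 (AT1G18330) and RVE8 (AT3G09600). These are 8 of the 32548 genes in the deposited table, and all 8 passed the filter on low values that left 25459 genes. RNA from 12-day-old seedlings was sequenced in 4 genotypes with 2 libraries each. The hag1 plants were homozygous mutants of HAG1, the plant GCN5-type histone acetyltransferase. The ada2b plants were homozygous mutants of ADA2B, the adaptor protein that works with HAG1 in the coactivator complex SAGA. The scs1 scs2a plants were homozygous for mutations in both SCS1 and SCS2A. The wild type was Col-0. All plants grew on Murashige and Skoog plates at 22 °C, with 16 h of light and 8 h of dark, and the labels name no treatment. The series asks which features of SAGA are shared across organisms and which are particular to plants. Allele names, the kind of lesion, the number of lines and the number of seedlings pooled per library were not given in the sources used here.

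In the plant circadian clock, LHY and CCA1 are partly redundant repressors whose transcripts peak around dawn. They bind the evening element in the promoters of evening genes such as TOC1 and repress them. Several PRR proteins repress LHY and CCA1 later in the day. RVE8, RVE4 and RVE6 bind the same element but activate evening genes in the afternoon, together with LNK coactivators. RVE1 links the clock to auxin production, and RVE2 (also called CIR1) and RVE7 (also called EPR1) are rhythmic genes on the output side. Because these transcripts cycle daily, the hour of harvest sets their level, and the labels give the photoperiod but no hour. A changed level and a shifted daily rhythm therefore cannot be told apart here. In whole seedlings, fewer cells of a type and less RNA per cell cannot be told apart either. Whether the 2 libraries of a genotype were grown apart is not in the labels, so the p-values reflect how far these libraries spread, which may be technical.

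The promoters of the members that rose in at least 1 mutant are shown because these genes moved to different degrees in the 3 mutants. Each is the 250 bases upstream of the annotated start in the RefSeq TAIR10.1 assembly, read 5′ to 3′ on the gene's own strand. The windows are chr1:37872-38121 on the minus strand for LHY, chr5:5692993-5693242 on the minus strand for RVE1, chr5:14753089-14753338 on the minus strand for RVE2 and chr3:2945989-2946238 on the plus strand for RVE8. The window of CCA1, the closest relative of LHY, is chr2:19245341-19245590 on the plus strand and is shown for comparison. Capitals mark matches to the G-box CACGTG and, in RVE2, also to the CCA1-binding site AAAAATCT.
LHY: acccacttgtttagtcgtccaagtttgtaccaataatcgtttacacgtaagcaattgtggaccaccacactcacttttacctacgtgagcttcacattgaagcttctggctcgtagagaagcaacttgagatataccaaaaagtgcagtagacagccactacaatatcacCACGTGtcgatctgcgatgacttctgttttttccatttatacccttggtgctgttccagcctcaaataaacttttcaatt
CCA1: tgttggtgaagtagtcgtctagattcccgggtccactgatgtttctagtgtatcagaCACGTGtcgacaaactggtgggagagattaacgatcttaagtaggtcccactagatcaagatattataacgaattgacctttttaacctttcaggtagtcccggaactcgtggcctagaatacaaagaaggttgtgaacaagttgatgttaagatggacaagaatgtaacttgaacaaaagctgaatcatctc
RVE1: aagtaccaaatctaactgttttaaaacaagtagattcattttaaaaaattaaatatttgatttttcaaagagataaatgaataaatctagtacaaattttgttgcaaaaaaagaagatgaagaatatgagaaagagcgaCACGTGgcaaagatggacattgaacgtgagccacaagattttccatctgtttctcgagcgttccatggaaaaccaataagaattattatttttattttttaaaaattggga
RVE2: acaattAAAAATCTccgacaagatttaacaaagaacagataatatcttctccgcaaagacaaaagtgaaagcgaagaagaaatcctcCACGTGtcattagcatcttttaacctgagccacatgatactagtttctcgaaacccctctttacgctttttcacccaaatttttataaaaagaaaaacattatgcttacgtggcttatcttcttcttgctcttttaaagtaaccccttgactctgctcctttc
RVE8: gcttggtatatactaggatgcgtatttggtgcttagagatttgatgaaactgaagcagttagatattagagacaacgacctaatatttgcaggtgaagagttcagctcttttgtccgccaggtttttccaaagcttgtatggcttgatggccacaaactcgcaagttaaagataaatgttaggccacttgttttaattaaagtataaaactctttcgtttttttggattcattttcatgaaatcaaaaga

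The G-box, a motif that bHLH and bZIP factors bind, began 80 bases upstream of the start in LHY, 193 in CCA1, 111 in RVE1 and 163 in RVE2. It was thus in the windows of 4 of the 8 members, against 6.49% of the 27443 promoters searched in the same way. LHY and CCA1 both carry it, and its part in the changes of these genes was not tested. Both strands were searched for 4 motifs, and the searched motifs do not overlap in these windows. The CCA1-binding site was found in RVE2, 244 bases upstream, and in RVE6, 58 bases upstream, which is 2 of 8 members against 6.69% of promoters. The evening element AAAATATCT was found in RVE7, 50 bases upstream, against 2.36% of promoters. The LUX-binding site GATACG was found in RVE4, on the other strand and 200 bases upstream, against 4.59% of promoters. The RVE4 window overlaps other annotated genes and includes exon bases of another gene, unlike the windows of the other members. RVE8 held none of these letters in this window. A match is a description of the letters and no measure of binding.

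Depth, estimated from the step of the low values, was 20420912 to 22088405 reads per library. HAG1 transcript was at 131 and 133 normalised counts in hag1 libraries, against 296 and 328 in wild type libraries (log2 change -1.23, limma adjusted p = 2.92e-05). ADA2B transcript was at 567 and 613 normalised counts in ada2b libraries, against 708 and 711.5 in wild type libraries. Its log2 change was -0.27 with a limma adjusted p of 0.0136, and the adjusted p was 0.0889 without ada2b replicate 1, 0.0646 without wild type replicate 1 and 0.0694 without wild type replicate 2. SCS1 and SCS2A were not matched to table rows and are not analysed here. Summed root markers were at 66348 to 85710 normalised counts in hag1, 51207 to 53782 in ada2b, 58331 to 59010 in scs1 scs2a and 46888 to 48241 in wild type. PYK10, a beta-glucosidase gene, made up 90.1 to 96.2% of these sums. Without it the sums were 2769 to 3262 in hag1, 2805 to 2973 in ada2b, 3889.9 to 3902 in scs1 scs2a and 4435 to 4628 in wild type, so the order against wild type turns. Each mutant had 1 of these 16 markers called higher, and 4 were called lower in hag1, 6 in ada2b and 5 in the scs1 scs2a mutant. Over all genes tested, 23% were called lower in hag1, 23.4% in ada2b and 12.1% in the scs1 scs2a mutant. None of the root markers was under 0.5 in both libraries of a genotype. Summed leaf markers were at 248709 to 252510 in hag1, 325669 to 341642 in ada2b, 269248 to 292479 in scs1 scs2a and 364123 to 370022 in wild type. RBCS1A, a rubisco small subunit gene, made up 82.6 to 86.7% of these sums. Without it they were 42065 to 43987 in hag1, 45512 to 46371 in ada2b, 40999 to 43276 in scs1 scs2a and 54678 to 61382 in wild type. Each mutant had 1 of these 10 markers called higher, and 6 were called lower in hag1, 7 in ada2b and 4 in the scs1 scs2a mutant. None of the leaf markers was under 0.5 in both libraries of a genotype. Summed senescence markers were at 511 to 517 in hag1, 361 to 398 in ada2b, 216 to 254 in scs1 scs2a and 167 to 203 in wild type, with SAG12 at 0 in every library. ORE1, a NAC factor gene of leaf ageing, made up 59.2 to 91.9% of these sums. Without it they were 70.6 to 75.0 in hag1, 32.1 to 34.0 in ada2b, 65.4 to 104 in scs1 scs2a and 45.0 to 60.6 in wild type. Of the 3 senescence markers tested, 1 was called higher in each mutant and 1 lower in ada2b. The shares of all genes called higher were 21.3% in hag1, 24.7% in ada2b and 7.86% in the scs1 scs2a mutant. Seed storage markers summed to at most 14.5 in any library. The part of these marker differences in the results on clock genes was not tested.

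LHY transcript was several times more abundant in all 3 mutants than in wild type. It was at 264 and 240.1 normalised counts in hag1 libraries, 236 and 267 in ada2b libraries, 157 and 145 in scs1 scs2a libraries, and 51.1 and 52.3 in wild type libraries. No mutant library overlapped the wild type, and scs1 scs2a stood between wild type and the other mutants. The means were 252 ± 16.7 in hag1, 252 ± 21.6 in ada2b, 151 ± 8.82 in scs1 scs2a and 51.7 ± 0.803 in wild type (SD, n = 2 each). Differences were tested with limma on log2(value + 1), with p-values adjusted by Benjamini-Hochberg over all 25459 genes, and a gene is called changed at an adjusted p under 0.05. The log2 change of LHY against wild type was 2.26 ± 0.12 in hag1 (SE, 95% interval 1.99 to 2.53, limma adjusted p = 8e-06). In ada2b it was 2.26 ± 0.12 (95% interval 1.99 to 2.53, limma adjusted p = 4.65e-06). In scs1 scs2a it was 1.53 ± 0.12 (95% interval 1.25 to 1.8, limma adjusted p = 0.000373). On the scale of log2(value + 1) these are 4.79-fold, 4.78-fold and 2.88-fold. Among all genes tested, 0.947% rose at least as far in hag1, 0.314% in ada2b and 0.683% in the scs1 scs2a mutant. The 3 comparisons share the wild type libraries and are not independent of each other.

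CCA1, which encodes the closest relative and partner of LHY, was not called changed in any mutant. Its normalised counts were 43.9 and 57.9 in hag1 libraries, 39.0 and 43.8 in ada2b libraries, 30.7 and 29.5 in scs1 scs2a libraries, and 50.8 and 33.3 in wild type libraries. The wild type libraries stood far apart. The hag1 and ada2b libraries overlapped their range, and the scs1 scs2a libraries lay below both of them. The log2 change was 0.29 in hag1 (95% interval -0.3 to 0.87, limma adjusted p = 0.401). It was 0.01 in ada2b (95% interval -0.58 to 0.59, limma adjusted p = 0.984) and -0.44 in scs1 scs2a (95% interval -1.03 to 0.15, limma adjusted p = 0.269). These intervals leave room for a rise of CCA1 but none reaches the size of the LHY change in the same mutant. The sign in hag1 and ada2b turned with single settings, to -0.01 in hag1 and -0.29 in ada2b without wild type replicate 2.

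The ratio of LHY to CCA1 within a library is unchanged by any scaling that uses a single factor per library. It was 6.0 and 4.15 in hag1 libraries, 6.05 and 6.09 in ada2b libraries, 5.13 and 4.90 in scs1 scs2a libraries, and 1.01 and 1.57 in wild type libraries. Every mutant library lay above both wild type libraries. The difference of the mean log2 ratio from wild type was 1.99 in hag1, 2.27 in ada2b and 2.0 in the scs1 scs2a mutant. The exact two-sided permutation p was 0.333 in each case, which is the smallest that 2 against 2 libraries can give. A ratio shows that LHY and CCA1 changed unequally, not that CCA1 stayed the same. Higher deposited values drifted from whole multiples of the step of the low values. Whether the authors' normalisation thereby affects the ratio was not tested.

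**Figure D1:**
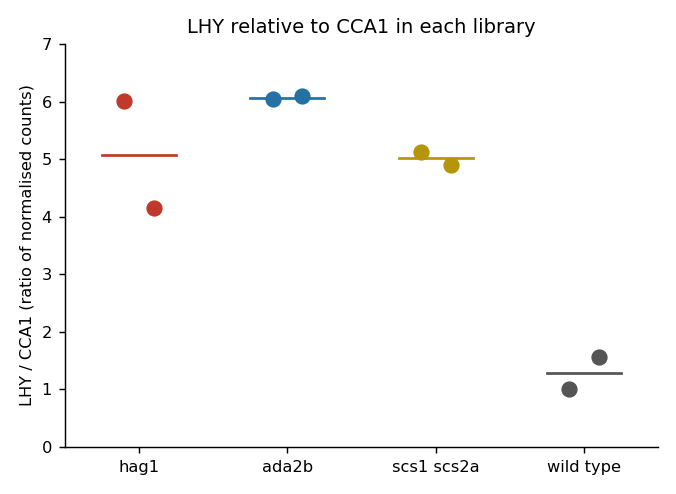
Ratio of LHY to CCA1 normalised counts in each library (vertical axis), for hag1, ada2b, scs1 scs2a and wild type (2 libraries each, 1 point per library, horizontal lines at the means). The 6 mutant libraries sit between 4.15 and 6.09, and the wild type libraries sit at 1.01 and 1.57.

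RVE1, which links the clock to auxin, was higher in hag1 and ada2b and was not called changed in scs1 scs2a. It was at 390.03 and 394 normalised counts in hag1 libraries, 364 and 520.1 in ada2b libraries, 149 and 119.8 in scs1 scs2a libraries, and 109 and 121 in wild type libraries. The hag1 and ada2b libraries all lay above both wild type libraries, while those of scs1 scs2a overlapped them. Means were 392.1 ± 2.87 in hag1, 442 ± 110.1 in ada2b, 134 ± 20.4 in scs1 scs2a and 115 ± 8.87 in wild type (SD, n = 2 each). The log2 change was 1.76 ± 0.17 in hag1 (SE, limma adjusted p = 0.000102) and 1.91 ± 0.17 in ada2b (SE, limma adjusted p = 6.23e-05), or 3.39-fold and 3.76-fold. In scs1 scs2a it was 0.21 (95% interval -0.18 to 0.61, limma adjusted p = 0.427). RVE1 lies at chr5:5690225-5692992 on the minus strand and overlaps AT5G17305 on the other strand. AT5G17305 was at 36.5 and 35.3 normalised counts in hag1, 17.0 and 59.6 in ada2b, 19.3 and 7.495 in scs1 scs2a, and 10.9 and 13.8 in wild type. Whether reads were counted by strand was not given in the sources used here, so reads of the 2 genes cannot be told apart, and the levels of AT5G17305 were well below those of RVE1.

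RVE2, a rhythmic gene also known as CIR1, rose most in ada2b. Its normalised counts were 3357 and 3334 in hag1 libraries, 7017 and 7003 in ada2b libraries, 3398 and 3530.3 in scs1 scs2a libraries, and 2753 and 2809.7 in wild type libraries. All mutant libraries were above both wild type libraries, and those of ada2b were above all others. The log2 change was 0.27 ± 0.05 in hag1 (SE, 1.2-fold, limma adjusted p = 0.0017), 1.33 ± 0.05 in ada2b (SE, 2.52-fold, limma adjusted p = 1.24e-06) and 0.32 ± 0.05 in scs1 scs2a (SE, 1.25-fold, limma adjusted p = 0.00282). The changes in hag1 and scs1 scs2a were small beside those of other genes: 27.7% of genes tested rose at least as far in hag1 and 15.6% in scs1 scs2a, against 1.67% in ada2b.

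RVE8, the main activator of evening genes in this family, was higher in all 3 mutants. It was at 268 and 300.05 normalised counts in hag1 libraries, 390.4 and 453 in ada2b libraries, 265 and 254 in scs1 scs2a libraries, and 122 and 139.5 in wild type libraries. No mutant library overlapped the wild type. The log2 change was 1.11 ± 0.11 in hag1 (SE, 2.16-fold, limma adjusted p = 0.000122), 1.68 ± 0.11 in ada2b (SE, 3.2-fold, limma adjusted p = 1.49e-05) and 0.99 ± 0.11 in scs1 scs2a (SE, 1.98-fold, limma adjusted p = 0.00123). At least as large a rise was seen in 5.5% of genes tested in hag1, 0.892% in ada2b and 2.69% in the scs1 scs2a mutant.

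RVE4 and RVE6, which act beside RVE8 as activators, were not called higher in any mutant. RVE4 was at 1054 and 1228 normalised counts in hag1 libraries, 1026 and 1231 in ada2b libraries, 993 and 902 in scs1 scs2a libraries, and 1056 and 1042 in wild type libraries. The hag1 and ada2b libraries overlapped the wild type ones, and the scs1 scs2a libraries lay below them. Its log2 change was 0.12 in hag1 (95% interval -0.12 to 0.35, limma adjusted p = 0.39), 0.10 in ada2b (95% interval -0.13 to 0.33, limma adjusted p = 0.45) and -0.15 in scs1 scs2a (95% interval -0.38 to 0.08, limma adjusted p = 0.346). RVE6 was at 162 and 181 normalised counts in hag1 libraries, 261 and 262 in ada2b libraries, 246 and 205 in scs1 scs2a libraries, and 270.3 and 235 in wild type libraries. Both hag1 libraries were below all others. RVE6 fell in hag1, with a log2 change of -0.55 ± 0.12 (SE, limma adjusted p = 0.00632). Without wild type replicate 1 that call was lost, at a log2 change of -0.45 and a limma adjusted p of 0.0651. In ada2b the RVE6 change was 0.05 (limma adjusted p = 0.746) and in scs1 scs2a -0.16 (limma adjusted p = 0.391).

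RVE7, also called EPR1, was not called in any mutant. Its normalised counts were 55.5 and 84.4 in hag1 libraries, 56.1 and 77.0 in ada2b libraries, 40.2 and 45.8 in scs1 scs2a libraries, and 42.5 and 50.0 in wild type libraries. The hag1 and ada2b libraries were above both wild type libraries but differed widely within each genotype. The log2 change was 0.56 in hag1 (95% interval -0.02 to 1.14, limma adjusted p = 0.109), 0.50 in ada2b (95% interval -0.08 to 1.08, limma adjusted p = 0.137) and -0.10 in scs1 scs2a (95% interval -0.69 to 0.48, limma adjusted p = 0.816). Without hag1 replicate 1 the hag1 change was 0.86 and was called, at a limma adjusted p of 0.0473. RVE7 is uncertain for a further reason: 58.8% of its 1781 distinct stretches of 50 exon bases, the read length, also occur at AT3G10110 or AT3G10113. The other 7 members had at most 0.272% of such stretches elsewhere. How the authors counted reads with several positions was not given in the sources used here. AT3G10113 was at 0 in every mutant library and at 1.07 and 0.00854 normalised counts in wild type libraries. AT3G10110 was at 50.0 and 42.1 in hag1, 42.0 and 25.2 in ada2b, 32.5 and 38.2 in scs1 scs2a, and 28.2 and 25.6 in wild type. How far shared reads raise or lower the RVE7 level was not tested.

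**Figure D2:**
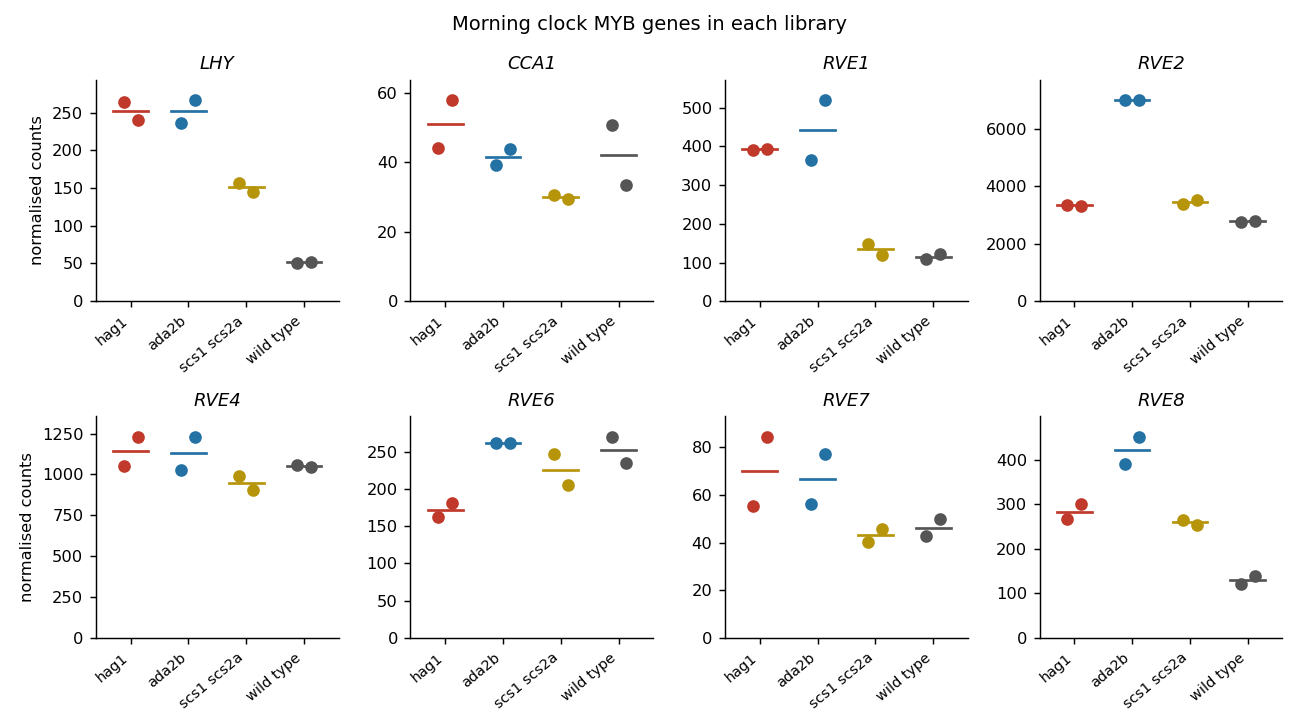
Normalised counts of each of the 8 members (1 panel per gene, vertical axes starting at 0) in hag1, ada2b, scs1 scs2a and wild type. Points are the libraries (2 per genotype) and horizontal bars are genotype means. LHY and RVE8 are above wild type in all 6 mutant libraries, RVE1 in the 4 hag1 and ada2b libraries, and RVE2 stands highest in ada2b, at 7017 and 7003.

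Counted together, 4 members were called higher, 1 lower and 3 not called in hag1, where 44.3% of all genes tested were called (21.3% higher and 23% lower). In ada2b, 4 were called higher and 4 not called, against 48.1% of all genes called (24.7% higher and 23.4% lower). In scs1 scs2a, 3 were called higher and 5 not called, against 19.9% of all genes called (7.86% higher and 12.1% lower). In the scs1 scs2a comparison, the number of called genes in the whole table was 5079 and moved to 1205 without wild type replicate 1, 1613 without wild type replicate 2, 1683 without scs1 scs2a replicate 2 and 3170 without scs1 scs2a replicate 1, while 3 members stayed called each time. The members' median log2 change was 0.43 in hag1, 0.92 in ada2b and 0.05 in the scs1 scs2a mutant, against 0.00, 0.03 and 0.00 over all genes tested. The count of members called in hag1 and ada2b is not far from the background. Changes as large as those of CCA1 and RVE4 were common, with 16 to 51.9% and 32.7 to 44.5% of genes tested at least as far the same way across the 3 mutants.

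**Figure D3:**
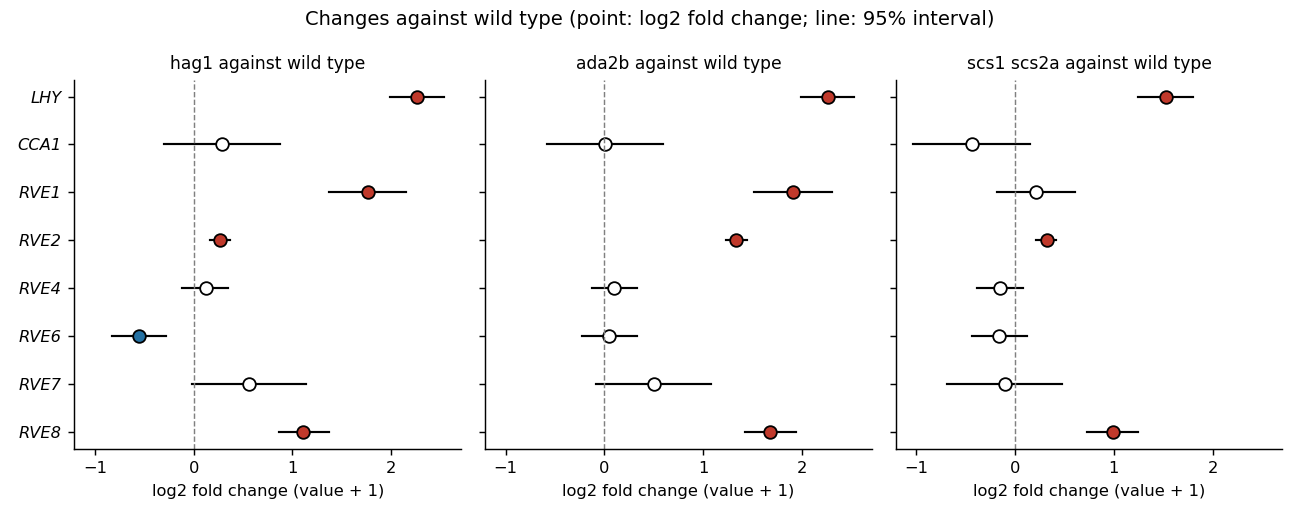
Log2 change of each member against wild type on the log2(value + 1) scale (horizontal axis), for hag1, ada2b and scs1 scs2a, with 95% intervals from limma as lines (2 libraries per genotype; red points called higher, blue called lower, open not called). LHY has the largest rise in each mutant, 2.26, 2.26 and 1.53, and the intervals of CCA1, RVE4 and RVE7 include 0 in all 3.

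LHY, RVE1, RVE2 and RVE8 were called higher against wild type in both hag1 and ada2b, and the mutants were next compared with each other. Between ada2b and hag1, 3 members were called higher in ada2b and 5 were not called, against 42.8% of all genes called (21.6% higher and 21.2% lower). RVE2 was 2.1-fold higher in ada2b (log2 difference 1.07 ± 0.05 SE, limma adjusted p = 4.71e-06). RVE6 differed by 0.61 ± 0.12 (SE, limma adjusted p = 0.00449) and RVE8 by 0.57 ± 0.11 (SE, limma adjusted p = 0.00437). LHY did not pass the test, with a difference of 0.00 and a 95% interval of -0.28 to 0.27 (limma adjusted p = 0.999). RVE1 differed by 0.15 (95% interval -0.24 to 0.54, limma adjusted p = 0.514).

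Between scs1 scs2a and hag1, 1 member was called higher and 2 lower, against 30.1% of all genes called (15.2% higher and 14.9% lower). LHY was lower in scs1 scs2a, with a log2 difference of -0.73 ± 0.12 (SE, limma adjusted p = 0.00276). RVE1 was lower by more, with -1.55 ± 0.17 (SE, limma adjusted p = 0.0005). RVE6 was higher in scs1 scs2a by 0.39 ± 0.12 (SE, limma adjusted p = 0.0416), a call that ended when scs1 scs2a replicate 1 was left out (0.26, limma adjusted p = 0.229). It also ended without hag1 replicate 1 (0.31, limma adjusted p = 0.182), without hag1 replicate 2 (0.47, limma adjusted p = 0.0664) and with only these 2 genotypes in the model (limma adjusted p = 0.0851). RVE8 did not pass, at -0.13 (95% interval -0.39 to 0.13, limma adjusted p = 0.436), and neither did RVE2, at 0.05 (95% interval -0.05 to 0.15, limma adjusted p = 0.442). CCA1 was at -0.73 with a limma adjusted p of 0.064, which became 0.0446 when genes with a mean under 10 were left out. RVE7 was at -0.66 with a limma adjusted p of 0.0841, which became 0.0471 at -0.96 without hag1 replicate 1.

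Between scs1 scs2a and ada2b, 4 members were called lower in scs1 scs2a and none higher, against 29.7% of all genes called (14.8% higher and 14.9% lower). RVE1 differed by -1.70 ± 0.17 (SE, limma adjusted p = 0.000376) and RVE2 by -1.02 ± 0.05 (SE, limma adjusted p = 1.55e-05). LHY differed by -0.73 ± 0.12 (SE, limma adjusted p = 0.00326) and RVE8 by -0.69 ± 0.11 (SE, limma adjusted p = 0.00332). RVE4 was at -0.25 (limma adjusted p = 0.099), and at -0.38 with a limma adjusted p of 0.0482 without ada2b replicate 1. The 3 comparisons between mutants share libraries in pairs, so they are not independent.

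**Figure D4:**
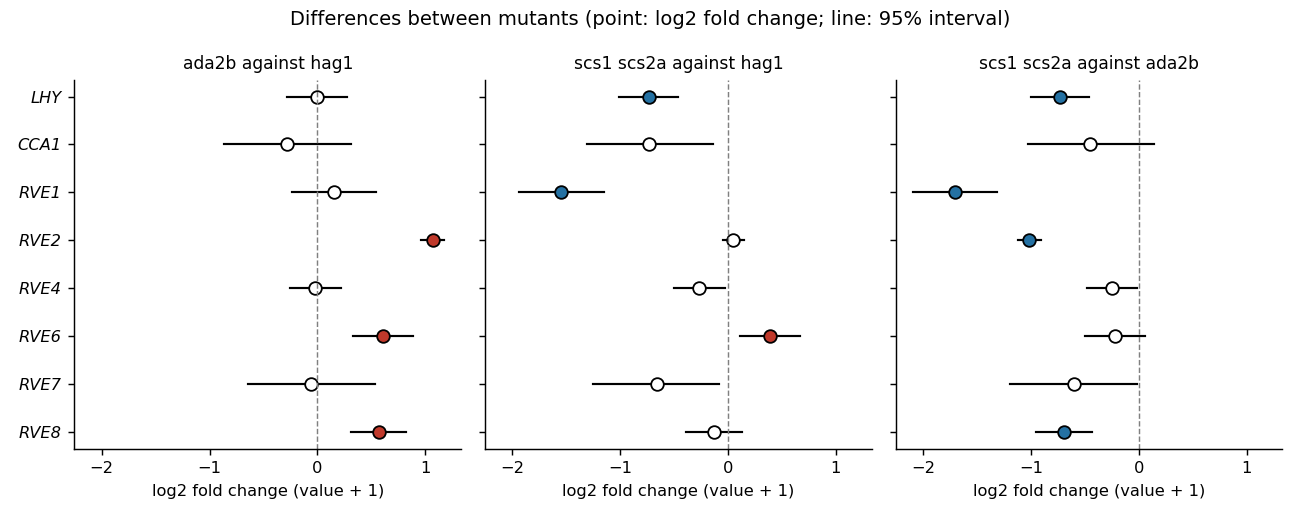
Log2 difference of each member between mutants (horizontal axis, first-named mutant minus the other), for ada2b against hag1, scs1 scs2a against hag1 and scs1 scs2a against ada2b, with 95% intervals from limma as lines (2 libraries per genotype; red points called higher, blue called lower, open not called). RVE1 lies at -1.55 and -1.70 in the comparisons of scs1 scs2a, and RVE2 at 1.07 in ada2b against hag1.

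Set per kilobase of exon, which allows levels to be compared between genes, RVE2 was the most abundant member in every genotype, with RVE4 next. RVE2 was at 3402 to 3425 normalised counts per kb in hag1, 7146 to 7160.4 in ada2b, 3468 to 3602 in scs1 scs2a and 2809 to 2867 in wild type. In hag1 the order below RVE4 was RVE1 (193 to 195 per kb), RVE8 (114 to 128), RVE6 (97.8 to 109.7), LHY (70.2 to 77.1), RVE7 (27.4 to 41.7) and CCA1 (16.1 to 21.3). In wild type it was RVE6 (142 to 163 per kb), RVE1 (54.0 to 60.2), RVE8 (52.0 to 59.5), RVE7 (21.0 to 24.7), CCA1 (12.2 to 18.7) and LHY (14.9 to 15.3). RVE1 and RVE8 overlapped in wild type, as did CCA1 and LHY, so neither pair has an order there. In ada2b, RVE1 (181 to 258 per kb) and RVE8 (166 to 193) overlapped and stood above RVE6 (158 in both libraries) and LHY (69.1 to 78.0). In scs1 scs2a the order was RVE6 (124 to 149 per kb), RVE8 (108 to 113), RVE1 (59.4 to 73.7), LHY (42.3 to 45.9), RVE7 (19.8 to 22.6) and CCA1 (10.8 to 11.3). The place of RVE7 in these orders is uncertain, since 58.8% of its exon stretches of read length also occur elsewhere.

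The genes that act with or against the members were read from lists by role. Of the 4 LNK coactivators of RVE8, 1 fell in hag1, 2 in ada2b and 1 in the scs1 scs2a mutant, and none rose. For hag1 that is close to the 23% of all genes called lower there. The share of all genes called lower was 23.4% in ada2b and 12.1% in the scs1 scs2a mutant. Whether this list of 4 genes exceeds these shares was not tested. LNK1 was at 53.2 and 51.0 normalised counts in hag1 libraries, 39.0 and 34.0 in ada2b libraries, 49.9 and 41.8 in scs1 scs2a libraries, and 120.4 and 100.5 in wild type libraries. Its log2 change was -1.06 in hag1 (limma adjusted p = 0.00223), -1.57 in ada2b (limma adjusted p = 0.0003) and -1.25 in scs1 scs2a (limma adjusted p = 0.00358, and 0.0522 without wild type replicate 1). LNK4 in ada2b had a log2 change of -1.45 (limma adjusted p = 0.00898), a call that ended without ada2b replicate 2 (limma adjusted p = 0.0563) or wild type replicate 2 (limma adjusted p = 0.0539). Of the other RVE genes, AT4G01280 rose by 0.34 in hag1 (limma adjusted p = 0.0203, and 0.0774 to 0.145 without either hag1 library or wild type replicate 1) and by 0.55 in ada2b (limma adjusted p = 0.00202), while ASG4 was not called in any mutant.

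Of the 5 genes of the PRR family, which includes repressors of LHY and CCA1, 2 fell and none rose in hag1. In ada2b 4 fell and 1 rose, and in scs1 scs2a 3 fell. Called either way, over all genes, were 44.3% in hag1, 48.1% in ada2b and 19.9% in the scs1 scs2a mutant. Called lower were 23%, 23.4% and 12.1%. Whether this list of 5 genes exceeds these shares was not tested. The list's median log2 change was -0.90 in hag1, -0.72 in ada2b and -0.66 in the scs1 scs2a mutant, against 0.00, 0.03 and 0.00 over all genes. PRR3 was at 235 and 248 normalised counts in hag1 libraries, 623 and 631 in ada2b libraries, 647 and 657 in scs1 scs2a libraries, and 1053 and 1008 in wild type libraries. Its log2 change was -2.09 in hag1 (limma adjusted p = 1.7e-06), -0.72 in ada2b (limma adjusted p = 4.86e-05) and -0.66 in scs1 scs2a (limma adjusted p = 0.000608). TOC1, the evening gene that LHY and CCA1 repress, changed by -0.15 in hag1 (limma adjusted p = 0.126), -0.53 in ada2b (limma adjusted p = 0.000514) and -0.57 in scs1 scs2a (limma adjusted p = 0.00169). PRR7 changed by -1.11 in hag1 (limma adjusted p = 0.00485, and 0.063 without wild type replicate 1), -1.44 in ada2b (limma adjusted p = 0.00129) and -1.39 in scs1 scs2a. The scs1 scs2a call of PRR7 (limma adjusted p = 0.0052) ended without wild type replicate 1 (limma adjusted p = 0.0716) or scs1 scs2a replicate 2 (limma adjusted p = 0.0506). PRR5 was the PRR gene that rose in ada2b, by 0.53 (limma adjusted p = 0.0044, and 0.0521 without wild type replicate 2). PRR9 was listed at 0 in both ada2b libraries against 3.27 and 3.21 normalised counts in wild type libraries, about 3 reads, and no fold is given. It is among the 4 called lower in ada2b, and its call ended when any 1 of the ada2b or wild type libraries was left out (limma adjusted p = 0.121 to 0.151).

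Of 8 evening genes, 4 fell in hag1, 4 fell and 1 rose in ada2b, and 6 fell in scs1 scs2a, against 23, 23.4 and 12.1% of all genes called lower in these mutants. In ada2b the split was 5 lower and none higher under median-ratio or upper-quartile scaling. The gene that rose in ada2b was LKP2, at 0.20 (limma adjusted p = 0.0401), and it was not called when any 1 of the ada2b or wild type libraries was left out. ELF3, at -0.23, and ELF4, at -0.19, were among the 6 in scs1 scs2a and likewise were not called without any 1 of the scs1 scs2a or wild type libraries. FKF1, a blue-light photoreceptor of the flowering pathway, was at 192 and 223 normalised counts in hag1 libraries, 293 and 288 in ada2b libraries, 355 and 339 in scs1 scs2a libraries, and 738 and 687 in wild type libraries. Its log2 change was -1.78 in hag1 (limma adjusted p = 6.79e-06), -1.29 in ada2b (limma adjusted p = 1.74e-05) and -1.03 in scs1 scs2a (limma adjusted p = 0.000489). GI, its partner, changed by -0.92 in hag1 (limma adjusted p = 0.00567), -1.79 in ada2b (limma adjusted p = 0.000182) and -0.98 in scs1 scs2a (limma adjusted p = 0.0111). GI was at 222 and 219 normalised counts in hag1 libraries, 123 and 117 in ada2b libraries, 204 and 219 in scs1 scs2a libraries, and 537 and 325 in wild type libraries. The wild type libraries stood apart, and without wild type replicate 1 its change was -0.56 in hag1 and -0.62 in scs1 scs2a. The GI call in scs1 scs2a ended without either scs1 scs2a library, at limma adjusted p of 0.0655 and 0.0671. LUX, a subunit of the evening complex, changed by -0.49 in hag1 (limma adjusted p = 0.000668), -0.94 in ada2b (limma adjusted p = 2.26e-05) and -0.44 in scs1 scs2a (limma adjusted p = 0.00397). The LUX call in scs1 scs2a ended without wild type replicate 1 (limma adjusted p = 0.0536) or replicate 2 (limma adjusted p = 0.0537).

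Of 11 modifiers of the clock, 3 rose and 2 fell in hag1, 5 rose and 3 fell in ada2b, and 1 rose and 2 fell in scs1 scs2a. For hag1 and scs1 scs2a this is near the 44.3% and 19.9% of all genes called. The share of all genes called in ada2b was 48.1%, and whether the modifiers exceed it was not tested. Under upper-quartile scaling 3 rose and 3 fell in ada2b, and none rose and 3 fell in scs1 scs2a. JMJ30, a histone demethylase gene with evening expression, changed by -1.08 in hag1 (limma adjusted p = 8.24e-06), -1.0 in ada2b (limma adjusted p = 6.77e-06) and -0.78 in scs1 scs2a (limma adjusted p = 0.000326). CKA2 rose by 0.42 in hag1 (limma adjusted p = 0.00018) and 0.45 in ada2b (limma adjusted p = 0.000116). Its rise in scs1 scs2a was 0.17 (limma adjusted p = 0.0359), and it was not called higher there under upper-quartile scaling. Of 18 output genes, 4 rose and 5 fell in hag1, 5 rose and 6 fell in ada2b, and 2 rose and 6 fell in scs1 scs2a. The count in hag1 is near the 44.3% of all genes called there. In ada2b 48.1% of all genes were called, and in scs1 scs2a 19.9% were (7.86% higher and 12.1% lower). Under upper-quartile scaling 3 rose and 6 fell in hag1 and in ada2b alike. COL1 had the smallest adjusted p of the outputs in each mutant. It rose by 0.74 in hag1 (limma adjusted p = 0.000254) and 1.19 in ada2b (limma adjusted p = 2.3e-05). In scs1 scs2a it rose by 0.72 (limma adjusted p = 0.0016). PIF4, which promotes hypocotyl growth, was at 58.7 and 91.3 normalised counts in hag1 libraries, 34.0 and 43.9 in ada2b libraries, 57.4 and 66.8 in scs1 scs2a libraries, and 327 and 219 in wild type libraries. Its log2 change was -1.85 in hag1 (limma adjusted p = 0.000735), -2.76 in ada2b (limma adjusted p = 9.39e-05) and -2.09 in scs1 scs2a (limma adjusted p = 0.0019). CDF1, a repressor of CONSTANS, changed by -1.72 in hag1 (limma adjusted p = 0.000786) and by -2.55 in ada2b (limma adjusted p = 0.000104). In scs1 scs2a it changed by -1.16 (limma adjusted p = 0.0153), a call that ended without scs1 scs2a replicate 2, wild type replicate 1 or wild type replicate 2 (limma adjusted p = 0.112 to 0.115).

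**Figure D5:**
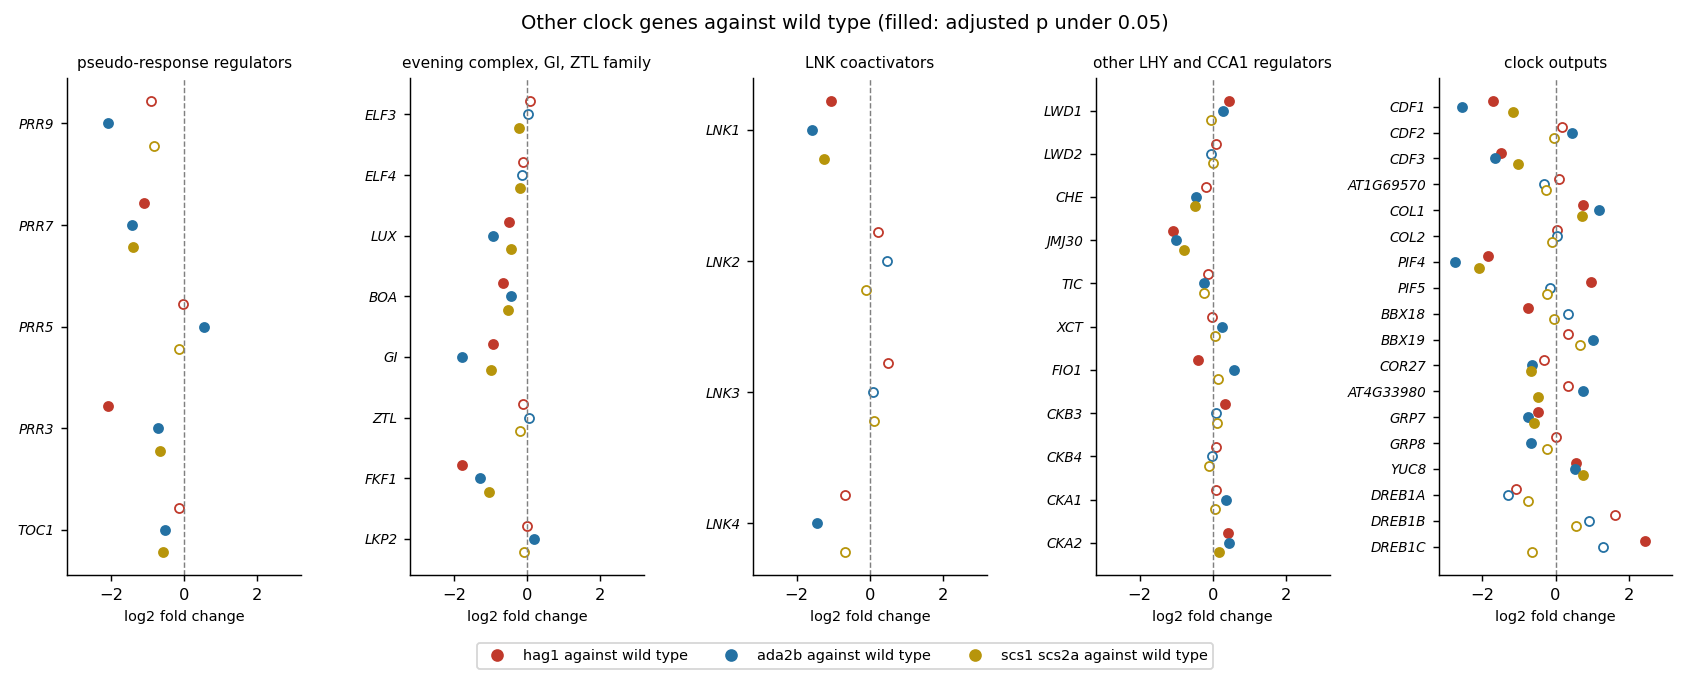
Log2 change against wild type on the log2(value + 1) scale (horizontal axes; 2 libraries per genotype) of clock genes other than the members, 1 panel per list, for hag1, ada2b and scs1 scs2a. Filled points passed limma's test at an adjusted p under 0.05 and open points did not, and PRR3 (-2.09 in hag1), FKF1 (-1.78 in hag1) and PIF4 (-2.76 in ada2b) lie far below 0.

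The wild type libraries differed between themselves in several clock genes. In the wild type, 7 of 49 clock genes with a mean of at least 30 normalised counts differed by more than 1.3-fold between the 2 libraries, against 6.17% of 19447 genes at that level. The count was 4 of 49 in hag1 against 9.82% of genes, 5 of 49 in ada2b against 7.74%, and 1 of 49 in scs1 scs2a against 6.31%. CCA1 was among the 7 in wild type. The level of 1.3-fold was chosen after the values were seen. LHY differed little between the wild type libraries, at 51.1 and 52.3. The hour at which each library was harvested was not given, and its part in these differences was not tested.

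The genes whose pattern over the 8 libraries was most like that of a member were found by Pearson r of log2(value + 1) among 3146 genes with a mean of at least 50 and a span of genotype means of at least 1 on the log2 scale. For LHY they were GH9A3 (r = 0.993), AT4G20830 (r = 0.991) and AT5G05710 (r = 0.989). GH9A3, a glycosyl hydrolase gene, was at 349 and 343 normalised counts in hag1 libraries, 346 and 365 in ada2b libraries, 159 and 173 in scs1 scs2a libraries, and 53.4 and 59.7 in wild type libraries. For RVE1 they were RLP27 (r = 0.996), AT1G80440 (r = 0.985) and AAE5 (r = 0.984), and RLP27 was at 393 and 403 in hag1, 407 and 475 in ada2b, 229.99 and 210.4 in scs1 scs2a, and 209 and 206 in wild type. RVE2 was most like AT5G39080 (r = 0.989), BEE1 (r = 0.988) and DGR2 (r = 0.987). RVE8 was most like AT5G15845 (r = 0.984), COL1 (r = 0.983) and ABCG19 (r = 0.983). AT5G15845 is a long non-coding RNA on the other strand that covers all 1698 exon bases of COL1, so their reads cannot be told apart if strand was not used. AT5G15845 was at 478 and 476 normalised counts in hag1 libraries, 665 and 616 in ada2b libraries, 479 and 457 in scs1 scs2a libraries, and 273 and 310 in wild type libraries. It lay slightly above COL1 in every library, so AT5G15845 and COL1 are not separate likenesses. Whether the same reads were counted for both was not tested. COL1, a CONSTANS-like gene, was at 466 and 467 normalised counts in hag1 libraries, 659 and 610.1 in ada2b libraries, 470.4 and 448 in scs1 scs2a libraries, and 257 and 300.5 in wild type libraries.

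The remaining members had weaker likenesses or smaller spans. RVE6 was most like AT1G15180 (r = 0.969), RTL2 (r = 0.969) and AT3G51150 (r = 0.968). RVE7 was most like AT3G04640 (r = 0.991), AT1G07135 (r = 0.965) and ATL2 (r = 0.948), which were also higher in replicate 2 than in replicate 1 of hag1 and ada2b. CCA1 was most like PP2-A13 (r = 0.876), and RVE4 was most like AT2G27830 (r = 0.882). The 8 points fall into 4 genotypes, so these values of r describe the pattern and carry no test.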

How the data were processed

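RNA of 8 seedling libraries gave single-end 50 bp reads, per the labels' protocols. The authors deposited a table of 32548 genes with 1 normalised count signal per library, which is neither whole-numbered nor pooled. HISAT2, edgeR and TAIR10 are named without versions, per the submitters' processing notes. The counter, the use of strand and the treatment of reads with several positions were not given in the sources used here. Small values lay near whole multiples of a step of 0.948 to 1.09 (96.5 to 100% within 0.1 of a whole number), but higher values drifted from it, so no count model was fitted. The deposited totals of 20570967 to 22344725 per library are set by that normalisation and are no measure of depth.

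The values were put on a log2(value + 1) scale and tested with limma 3.58.1 (R 4.3.3), keeping genes that reached 1 in at least 2 libraries. The 8 libraries were fitted in 1 model with genotype as the only term and a trend on mean level (4 residual and 4.42 prior degrees of freedom). Tests were two-sided, with Benjamini-Hochberg adjustment over 25459 genes at 0.05. The 95% intervals are limma's and are not adjusted. The fold changes understate those of low genes. The members and lists were chosen with earlier results of these data known. A rule set the genes that could be named. It takes HAG1 and ADA2B, the members, the 3 genes most like each member, and called list genes. Per list and comparison with wild type, up to 4 called genes are taken by smallest adjusted p. LWD1, CKB3, CKA1, BOA, CHE, CDF3, COR27 and further genes like CCA1 and RVE4 met this rule but are not described. TOC1 in hag1, ELF3, ELF4, LKP2, ASG4, CDF1 in scs1 scs2a, AT5G17305, PRR9, SAG12, PYK10, RBCS1A and ORE1 fall outside the rule and were picked with their values already seen. The same holds for AT3G10110 and AT3G10113. The lists hold the other RVE, LNK, PRR, evening, modifier and output genes and root, leaf, senescence and seed markers. Replicate numbers were not used as pairs. Sequences and gene positions come from RefSeq TAIR10.1, by locus; no positions of the authors were used. On simulated data with a dispersion of 0.002, log2 changes of 1 were called in 78.1% of cases for hag1 (26093 genes), 76.4% for ada2b (26052 genes) and 84.4% for scs1 scs2a (26087 genes). Far fewer genes changed there than were called in the data, so these shares are not the power of the tests here. Alternatives were 2 other scalings, other filters and pseudocounts, a replicate block, each library left out, and models of only 2 genotypes. For list genes and targeted genes these alternatives were added after the data were seen.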

Additional observations from a re-analysis of the deposited data

How the results depend on the processing

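The calls against wild type of LHY, RVE2 and RVE8 in the 3 mutants, and of RVE1 in hag1 and ada2b, kept their direction and stayed called under every alternative run. Of 528 member values recomputed, 499 kept direction and side of the threshold, 5 became called, 6 lost their call and 18 changed sign, all of these uncalled; the cause was not tested. Leaving out 1 library at a time, CCA1 against wild type ran from -0.01 to 0.58 in hag1 and from -0.29 to 0.30 in ada2b (-0.07 without ada2b replicate 2). CCA1 in ada2b was also -0.04 under median-ratio and -0.12 under upper-quartile scaling. RVE4 in ada2b became -0.03 under upper-quartile scaling and ran from -0.03 to 0.23 with libraries left out. RVE6 in ada2b became 0.00 and -0.07 under median-ratio and upper-quartile scaling and ran from -0.05 to 0.15 with libraries left out, and RVE7 in scs1 scs2a ran from -0.22 to 0.01. Between ada2b and hag1, the range with libraries left out was -0.09 to 0.08 for LHY, -0.11 to 0.41 for RVE1, -0.15 to 0.11 for RVE4 and -0.36 to 0.24 for RVE7.

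Leaving out 1 library gave 1205 to 3170 called genes for scs1 scs2a against wild type (5079 with all libraries), 4326 to 5380 against hag1 (7652) and 3968 to 4375 against ada2b (7567). For list genes, 816 of the recomputed calls held and 118 were lost. Upper-quartile scaling gave 32.5% of called genes higher in ada2b against wild type (51.3% in the deposited scaling), 27.1% in scs1 scs2a against wild type (39.4%), 39.3% in ada2b against hag1 (50.6%) and 74.4% in scs1 scs2a against ada2b (49.9%), and median-ratio scaling gave 60.3% in the last.

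Deviations of same-numbered libraries from their genotype means correlated across genes by -0.081 to 0.125. The highest was between ada2b and hag1, and since not every pair exceeded 0.1 the numbers were not taken to pair the libraries. With a replicate block, called genes against wild type numbered 10815 for hag1, 11823 for ada2b and 4502 for scs1 scs2a, 10439 in ada2b against hag1, and 7132 and 6939 in scs1 scs2a against hag1 and ada2b; members called were 5, 4, 3, 3, 3 and 4. With the block RVE6 in scs1 scs2a against hag1 had a limma adjusted p of 0.0525 and RVE7 of 0.0419. In the simulation, a log2 change of 0.5 was called in 28.4% of cases for scs1 scs2a. It changed far fewer genes than were called in the data and gave every gene the same dispersion. This share therefore does not carry over to CCA1 or other members. Small changes may still be missed with 2 libraries a genotype.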
